A study of Mus musculus with 53 samples.

Results

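The comparison described here sets WGD+ mammary tumours grown in A/J mice against WGD+ tumours grown in mice labelled NSG, all given vehicle. Its members are 6 RNA-seq libraries of 53 in the series, and of the 24 in its YM-155 experiment: 3 from A/J hosts and 3 from NSG hosts, chosen by host, tumour form and treatment in the sample titles. The tumours came from TA3 Hauschka cells, a mouse mammary tumour line, in a form engineered to carry whole genome doubling (WGD+). Cells in Matrigel went into the inguinal mammary fat pad of 6-week-old female hosts, and vehicle was given for 14 days. What the vehicle was, and the day of collection for these libraries, is not stated in the labels used here.

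The 2 hosts differ by more than their lymphocytes. A/J is an inbred strain with an intact immune system. The other host is described as NOD.Cg-Prkdcscid Il2rgtm1Wjl carrying Tg(CMV-IL3,CSF2,KITLG)1Eav: a NOD background, the scid mutation of the DNA repair kinase gene Prkdc, a targeted allele of the common cytokine receptor chain Il2rg, and a transgene in which a viral promoter drives the human cytokines IL-3, GM-CSF (CSF2) and stem cell factor (KITLG). Strain, immunity and transgene therefore change together in every host contrast below and cannot be told apart. Tumour and host cells are both murine, so a transcript cannot be assigned to either. In bulk RNA, fewer cells of a type and less RNA per cell cannot be told apart. The genotype field of all 6 libraries reads WGD- although their titles read WGD+. The titles were followed, as the field disagrees with the title in 12 libraries of this experiment and does so alike in both hosts. Whether replicates are separate animals is not labelled. The p-values here reflect only the spread of libraries within groups, taken over all 24 libraries of the experiment unless stated. That spread may be technical.

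As background, cells display peptides to cytotoxic T cells on MHC class I molecules, which consist of a polymorphic heavy chain and beta-2-microglobulin and are loaded with fragments cut by the immunoproteasome and pumped by the TAP transporter. T cells and NK cells secrete interferon-gamma, which acts through IRF1 and other factors to raise this machinery, MHC class II and a family of guanylate-binding proteins in neighbouring cells. Mice that lack Prkdc and Il2rg function make no mature T or B cells and lack NK cells, but keep macrophages, neutrophils, mast cells and stroma.

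The 3 A/J libraries held 7477917, 6554742 and 6844853 assigned reads and the 3 NSG libraries 6658957, 6882176 and 6782012. None of the 6 stood apart from the other libraries of the experiment by its correlation with them, whereas replicates 1 and 2 of A/J WGD- vehicle did. Levels are given as log2(CPM + 1), where CPM is the read count per 1000000 reads of scaled library size, in the order of replicates 1, 2 and 3. Differences are A/J minus NSG on that scale, each with its standard error (SE) from limma, and they understate the change of low genes. Of 13826 genes tested, 1731 (12.5%) differed at a limma adjusted p under 0.05, 996 (7.2%) higher and 735 (5.32%) lower in A/J. The median difference of all genes tested was 0.00285. For 6434 genes (46.5%) the 2 groups did not overlap, 23.4% higher and 23.1% lower, and 1723 of the 1731 called genes were among these. The number of calls moved with single libraries: it was 478 without A/J replicate 2, 816 without A/J replicate 3, and 835, 597 or 417 without NSG replicate 1, 2 or 3. Without A/J replicate 1 it was 1374. For most named genes the number of the 6 leave-outs in which the call held is therefore given.

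**Figure D1:**
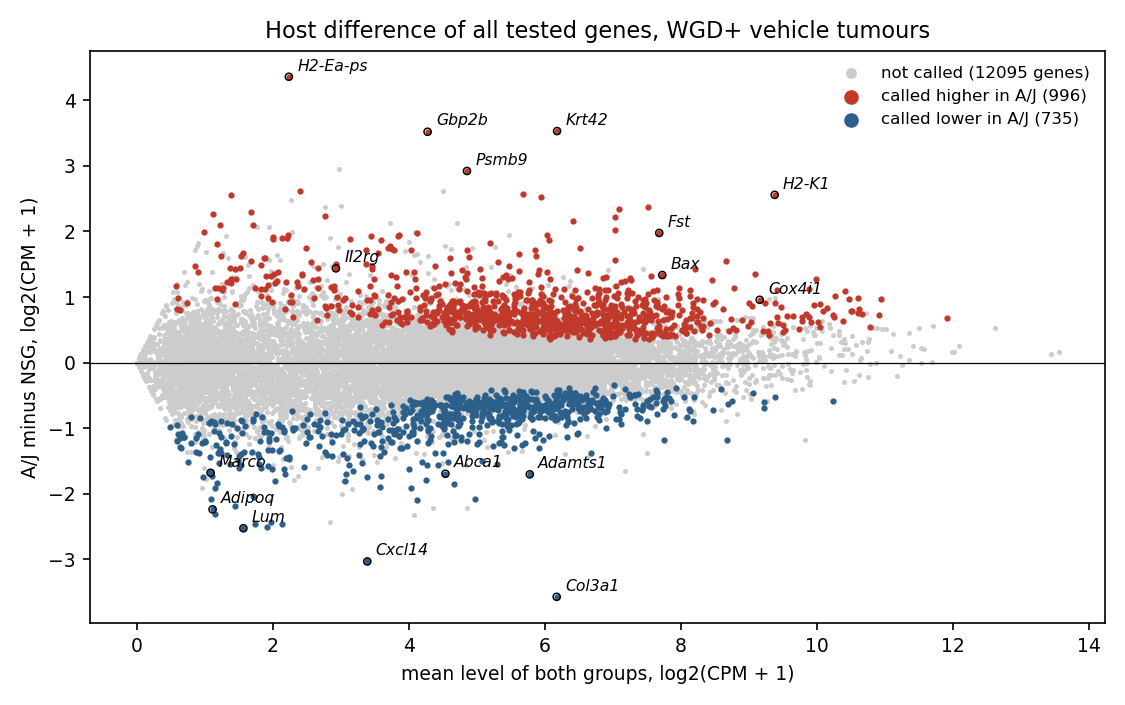
Difference between hosts (A/J minus NSG, log2(CPM + 1), vertical axis) against the mean level of both groups (horizontal axis) for the 13826 genes tested, with 996 called higher in red, 735 called lower in blue and the rest grey. H2-Ea-ps, Krt42 and Gbp2b lie highest and Col3a1 and Cxcl14 lowest among the circled genes.

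The genes mutated in the NSG strain were read first. Il2rg (X chromosome, 101264378 to 101268255, minus strand, in mm10) was at 3.55, 3.66 and 3.73 in A/J and 1.72, 2.52 and 2.41 in NSG libraries. The groups did not overlap, and Il2rg was higher in A/J by 1.44 (SE 0.33, limma adjusted p = 0.00963), a call that held in 5 of 6 leave-outs and gave an adjusted p of 0.0508 without NSG replicate 1. Prkdc (chromosome 16, 15637866 to 15842235) was at 4.30, 3.93 and 4.18 against 4.62, 4.68 and 4.88, a difference of -0.59 that did not pass (SE 0.27, adjusted p = 0.147). The scid allele is a point mutation, so its RNA level checks nothing. Among 10 tested receptors and cytokines that use the common chain, Il2rg was the 1 called gene, and the median difference was 0.09. Of 7 tested genes of non-homologous end joining, the repair route that needs Prkdc, 0 were called; Xrcc6, which encodes Ku70, was at -0.36 (adjusted p = 0.0755) and Nhej1 at 0.74 (adjusted p = 0.135).

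Genes of MHC class I antigen presentation formed the list with the most calls in A/J tumours. Of its 17 members, all tested, 12 were called higher and 0 lower, with a median difference of 1.75 beside 0.00285 for all genes. H2-K1, a classical heavy chain (chromosome 17, 33996017 to 34000347), was at 11.42, 9.91 and 10.65 in A/J and 8.18, 8.26 and 7.87 in NSG libraries. The lowest A/J library exceeded the highest NSG library, and the difference was 2.56 (SE 0.59, limma adjusted p = 0.0121). Psmb9, an inducible catalytic subunit of the immunoproteasome (chromosome 17, 34181987 to 34187764), was at 7.55, 4.99 and 6.42 against 3.44, 3.80 and 2.95, a difference of 2.92 (SE 0.76, adjusted p = 0.02). Its partner subunit Psmb8 was at 7.77, 6.23 and 6.88 against 4.52, 4.801 and 3.87, a difference of 2.56 (adjusted p = 0.0146). In all 3 genes A/J replicate 1 was highest and A/J replicate 2 lowest of the A/J libraries.

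Called genes were found at other steps of the pathway too. Tap1, which with Tap2 forms the peptide transporter, was higher by 2.53 (SE 0.65, limma adjusted p = 0.0196), Tap2 by 2.16, and Tapbp (tapasin), which bridges the transporter and the heavy chain, by 2.37 (adjusted p = 0.0101). The heavy chain gene H2-D1 differed by 2.21, H2-T23 by 1.72 and B2m, the invariant light chain, by 1.54. Psme1 and Psme2, the 2 subunits of the PA28 proteasome activator, differed by 1.56 (SE 0.25, adjusted p = 0.00155) and 1.75, and the third inducible catalytic subunit Psmb10 by 1.72. Members not called were Nlrc5, the class I transactivator, at 2.38 (adjusted p = 0.106), the peptide trimming enzyme gene Erap1 at 1.02 (adjusted p = 0.0518), H2-M3 at 0.66, and the loading chaperone genes Calr and Pdia3 at 0.06 and 0.25. With one library left out, 12 members were called without A/J replicate 2, 5 without A/J replicate 1, 6 without A/J replicate 3, 8 and 7 without NSG replicates 1 and 2, and 3 without NSG replicate 3. The median difference stayed between 1.55 and 2.08. Tapbp was called in all 6, H2-K1 and Psmb8 in 5 (adjusted p = 0.0529 and 0.0669 without NSG replicate 3), and Psmb9, Tap1 and H2-D1 in 2. Heavy chain genes are near-identical copies and differ between strains, so how reads were shared among them, and how well alleles of A/J and NOD align to the reference, was not tested.

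Promoter windows of the called members were searched for 2 motifs of interferon signalling on both strands: TTCNNNGAA, the GAS element of interferon-gamma signalling, and the core of the interferon-stimulated response element (ISRE), a pair of GAAA blocks with any 2 bases between them. The windows come from RefSeq (GRCm38.p6) and run from 250 bases before to 50 bases after a gene start. Of the 12 called genes 11 had a window. A gene could have several windows and was counted once if any held the motif, whereas shares of all windows count each window. The GAS letters were found in 1 of them, Psmb8, and in 8.3% of all 32851 windows, and the ISRE core in 3, B2m, H2-T23 and Psme1, and in 3.44% of all windows. The matches are shown because these 4 genes were all called higher in A/J tumours. The motif is in capitals, 5′ to 3′ on the strand of the gene.
Psmb8: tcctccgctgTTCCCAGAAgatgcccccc
B2m: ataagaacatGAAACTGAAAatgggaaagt
H2-T23: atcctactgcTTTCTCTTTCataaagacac
Psme1: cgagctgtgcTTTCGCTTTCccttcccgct
The Psmb8 match (chr17:34198088-34198116, plus strand) begins 97 bases before the start, that of B2m (chr2:122147538-122147567, plus strand) 139 bases and that of H2-T23 (chr17:36032806-36032835, minus strand) 124 bases before it. The Psme1 match (chr14:55578493-55578522, plus strand) lies just after its start. In H2-T23 and Psme1 the core is read on the opposite strand. A match describes letters and not binding, and the window of Psmb9, the member with the largest difference, held neither motif.

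Few MHC class II genes passed the test. Of 12 listed genes 9 were tested, 2 were called higher and 0 lower, and the median difference was 1.73. The groups did not overlap for 5, all higher in A/J. Among all genes tested 46.5% did not overlap, 23.4% of them higher and 23.1% lower as shares of all. H2-Ea-ps (chromosome 17, 34341959 to 34344645, minus strand), the class II alpha gene annotated as a polymorphic pseudogene because some strains, the reference among them, do not express it, was at 5.58, 3.66 and 4.01 in A/J and 0, 0 and 0.18 in NSG libraries. It had the largest difference of the named genes, 4.36 (SE 0.81, limma adjusted p = 0.00357), and was called in all 6 leave-outs. Voom on recovered reads did not call it (voom adjusted p = 0.0606). That fit called 0 class II members, beside 1074 of all 13826 genes called higher. The peptide exchange gene H2-DMb1 was at 4.53, 1.88 and 3.08 against 1.10, 1.72 and 0.96 (difference 1.91, adjusted p = 0.0348), and its call held in 1 of 6 leave-outs, without A/J replicate 2. Cd74, the invariant chain, was at 7.44, 5.61 and 6.29 against 4.52, 5.21 and 3.80, which did not overlap and did not pass (1.94, adjusted p = 0.21). The class II transactivator Ciita differed by 1.18 (adjusted p = 0.229).

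Interferon-gamma response genes differed more, by mean level of the list, between A/J replicates 1 and 2 than between the host means. Those means were 4.55 in A/J and 2.75 in NSG libraries. Of 20 tested members 3 were called higher and 0 lower, with a median difference of 1.82. The mean level of the list was 6.08, 2.93 and 4.64 in the 3 A/J libraries and 2.87, 2.87 and 2.5 in the NSG libraries, so A/J replicate 2 lay at the NSG level and replicate 1 far above it. Irf1, a transcription factor induced by interferon-gamma (chromosome 11, 53770014 to 53778374), was at 7.94, 6.17 and 6.89 against 5.22, 5.08 and 5.10 (difference 1.87, SE 0.53, limma adjusted p = 0.0295). Gbp2b, a guanylate-binding protein gene, was at 8.21, 3.79 and 6.13 against 2.97, 2.22 and 2.37 (3.52, SE 1.00, adjusted p = 0.0293). Socs1, the feedback inhibitor of the pathway, showed less spread, at 4.57, 4.34 and 4.31 against 3.07, 3.25 and 2.90 (1.33, adjusted p = 0.0387).

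Several members with large differences were not called. Gbp4 was at 6.81, 2.0 and 4.54 in A/J and 1.58, 1.15 and 1.77 in NSG libraries, which did not overlap (2.95, limma adjusted p = 0.0609). The chemokine gene Cxcl9 was at 5.37, 1.07 and 4.10 against 1.72, 1.06 and 0.34, and its groups overlapped through A/J replicate 2. Cd274, which encodes PD-L1, was at 5.13, 2.56 and 3.69 against 1.999, 2.17 and 1.53 (1.89, adjusted p = 0.0565). Leaving out A/J replicate 2 gave 5 called members and a median of 2.59, and leaving out any other of the 6 gave 0 called members, with a median of 1.08 without A/J replicate 1. Gbp2b and Irf1 thus kept their call in 1 of 6 leave-outs and Socs1 in 0.

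Type I interferon response genes followed the same order of libraries. The mean level of the list was 5.63, 3.88 and 4.76 in A/J and 3.93, 3.89 and 3.25 in NSG libraries. The hosts thus overlapped through A/J replicate 2. Of 25 tested, 5 were called higher and 0 lower, with a median of 1.13. Isg15, a ubiquitin-like modifier called in 2 leave-outs, was at 7.10, 5.73 and 6.52 in A/J and 5.07, 4.97 and 4.35 in NSG libraries (1.65, limma adjusted p = 0.0244). Oas1a, which senses double-stranded RNA, was at 6.52, 5.51 and 6.11 against 4.83, 4.68 and 4.72 (1.30, adjusted p = 0.0095), the called member with the smallest p of those named and the 1 of them that held in all 6 leave-outs. Bst2 (tetherin) differed by 2.34 and the XIAP-associated factor gene Xaf1 by 1.73, with calls in 1 and 0 leave-outs. Without A/J replicate 2 the list had 5 calls, without NSG replicate 1 it had 3, and without A/J replicate 1 or 3 or NSG replicate 2 or 3 it had 1.

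**Figure D2:**
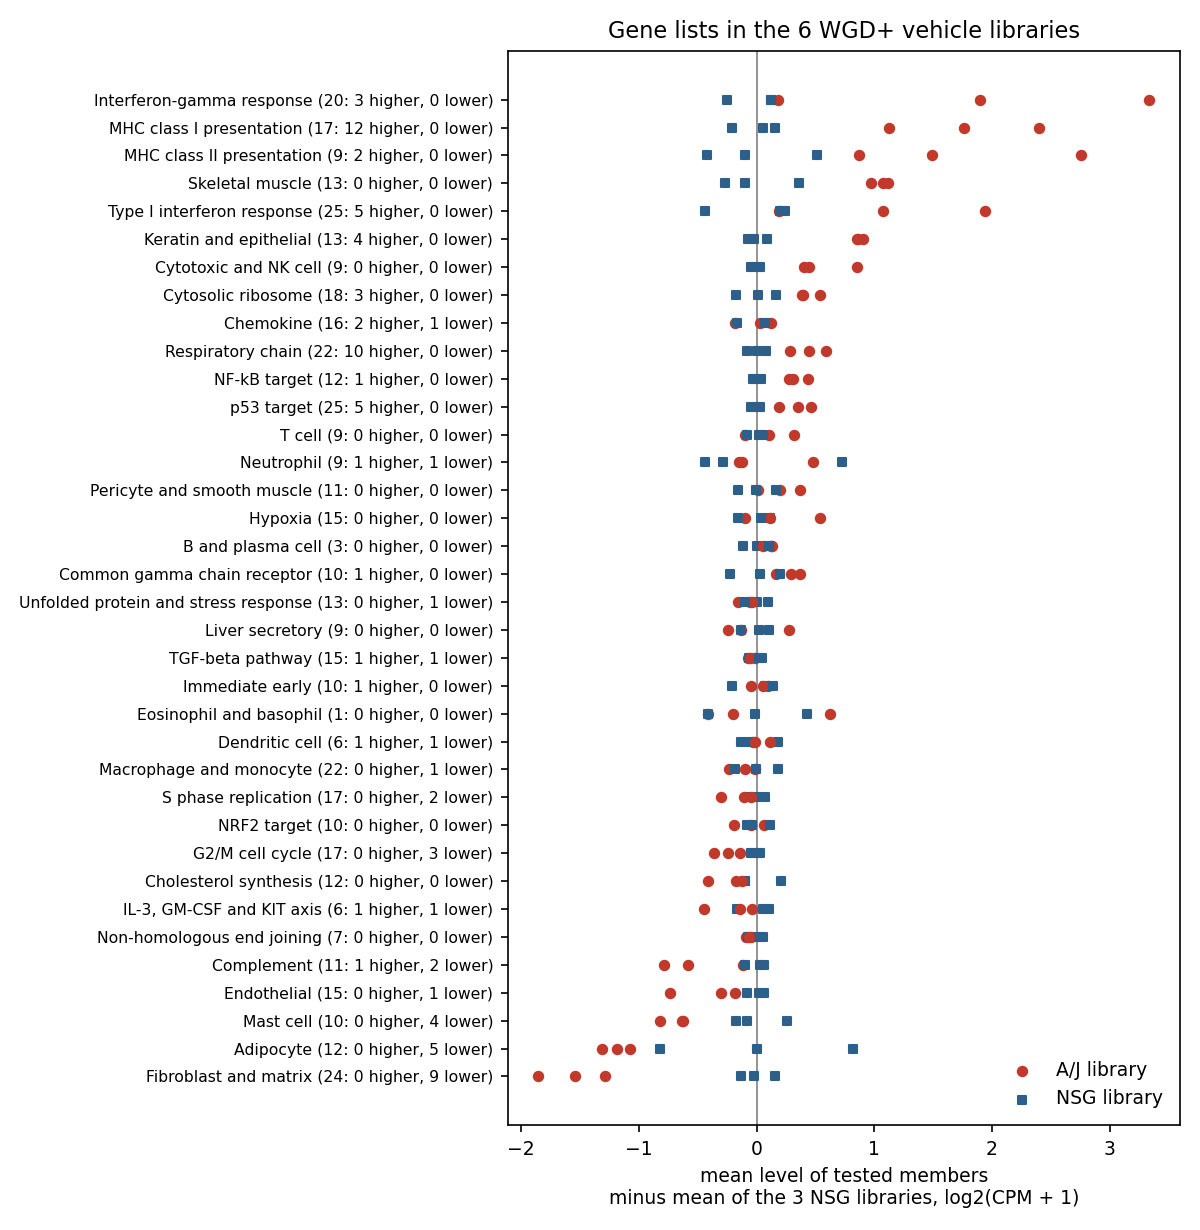
Mean level of each gene list in each of the 6 libraries, as the difference from the mean of the 3 NSG libraries (log2(CPM + 1)), ordered by median difference of the tested members; the numbers after each name give tested members and calls in A/J. For interferon-gamma genes 1 A/J library sits beside the NSG libraries, whereas the 3 A/J libraries lie together for keratin genes and below all NSG libraries for fibroblast genes.

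Defining lymphocyte markers were at or near 0 in both hosts. In the 3 NSG libraries 8 of the 19 T cell genes in the table had no read at all, namely Cd3d, Cd3e, Cd3g, Cd8a, Cd8b1, Cd2, Icos and Ctla4. In A/J libraries Cd3e had 3, 0 and 1 reads, Cd3g 2, 2 and 4 and Cd8a 3, 1 and 0. Summed over the list the level was 50.7, 51.9 and 44.8 CPM in A/J and 47.1, 40.8 and 39.3 CPM in NSG libraries, most of it from Lck, Foxp3 and Cd247, which had reads in every NSG library. Of 9 tested T cell genes 0 were called; Foxp3 was at 3.97, 4.45 and 4.07 against 3.78, 3.73 and 3.54 (0.48, limma adjusted p = 0.221).

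The list of 16 cytotoxic and NK genes summed to 298, 268 and 235 reads in A/J and 196, 194 and 223 reads in NSG libraries, most of the NSG sum coming from Klrb1c, which had 153, 148 and 188 reads there. Gzmb, the granzyme B gene, had 26, 8 and 5 reads in A/J libraries and 0 in each NSG library; Prf1, the perforin gene, had 8, 13 and 6, Gzma 4, 3 and 2, and Ifng 17, 0 and 3, all against 0. In that list 11 genes had no read in any NSG library, 2 of them with none in A/J either. Of the 9 tested, 0 passed at a limma adjusted p under 0.05: Prf1 differed by 1.19 (adjusted p = 0.0581) and Gzmb by 1.38 (adjusted p = 0.104). Voom on recovered reads called 3 members higher, beside 1074 of all 13826 genes. A fit of the 6 libraries alone called 2 members higher, beside 2155 of all genes. The library with the most Ifng reads, A/J replicate 1, was also the highest in the interferon-gamma list, and replicate 2, with 0, the lowest. Gzmb and Gzma reads were also highest in replicate 1, whereas Prf1 reads were highest in replicate 2. These orders rest on few reads, and a link to the list was not tested. Among B and plasma cell genes Ms4a1 had no read in any of the 6 libraries, and 0 of 3 tested genes were called; Cd22 and Jchain differed by 0.09 and 0.30.

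Macrophage genes did not separate the hosts as a group. The summed level of 22 members was 563, 731 and 672 CPM in A/J and 555, 714 and 627 CPM in NSG libraries, and the median difference was -0.06. Marco, a scavenger receptor, was the 1 called member, at 0.75, 0 and 0 in A/J and 1.72, 1.99 and 2.08 in NSG libraries (-1.68, SE 0.47, limma adjusted p = 0.024). Its call held in 1 of 6 leave-outs, without A/J replicate 1. The shares called over all genes tested were 7.2% higher and 5.32% lower. In the neutrophil list, Ltf (lactoferrin) was higher by 1.72 (adjusted p = 0.0181) and the chemokine receptor gene Cxcr2 lower by 1.06 on the log2 scale (difference -1.06, adjusted p = 0.0411), with Cxcr2 overlapping between groups and calls in 3 and 1 leave-outs. In the dendritic list Batf3, a factor of cross-presenting cells, was at 1.25 and Zbtb46 at -1.07, called in 1 and 2 leave-outs, while the marker genes Xcr1 and Clec9a had at most 5 reads in a library.

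Several mast cell proteases were called lower in A/J tumours. The transgene of the other host includes the KIT ligand, and its part was not tested. In WGD- vehicle tumours the mast cell list had a median host difference of 0.04, with 2 genes called higher and 0 lower. In the WGD+ vehicle tumours compared here, 4 of 10 tested mast cell genes were called lower and 0 higher, with a median of -0.82. Mcpt4, a chymase of connective tissue mast cells (chromosome 14, 56059629 to 56062313, minus strand), had 1, 6 and 1 reads in A/J and 23, 17 and 25 reads in NSG libraries, levels of 0.18, 0.96 and 0.20 against 2.10, 1.72 and 2.13. The difference was -1.53 (SE 0.36, limma adjusted p = 0.0115), called in 5 of 6 leave-outs (adjusted p = 0.0535 without NSG replicate 3). The tryptase gene Tpsb2, the chymase gene Cma1 and the carboxypeptidase gene Cpa3 differed by -1.41, -1.37 and -1.15, with calls in 1, 0 and 0 leave-outs. Tryptase and chymase genes are close copies of their neighbours, so reads may be split among them. Kit, their receptor tyrosine kinase, had 22, 16 and 7 reads against 43, 36 and 32 and was not called (adjusted p = 0.102). The mouse gene Kitl, the murine ligand, was also lower in A/J, with a difference of -0.996 (adjusted p = 0.0129), and Il3ra, the IL-3 receptor alpha chain, higher by 1.02 (adjusted p = 0.0293), with calls in 4 and 1 leave-outs. These were the 2 calls among 6 tested genes of the IL-3, GM-CSF and KIT axis, and Il3 had no read in any of the 6 libraries. Of the eosinophil and basophil genes 1 was tested and 0 were called, with Epx, Ear1, Ear2 and Ear6 at 0 in all 6.

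Fibroblast and matrix genes had the most calls of any list in the lower direction. Of 24 members, all tested, 9 were called lower and 0 higher, and the median difference was -1.49. For 23 the groups did not overlap, beside 46.5% of all genes tested. Col3a1, the fibrillar type III collagen (chromosome 1, 45311538 to 45349706), was at 4.33, 4.13 and 4.71 in A/J and 7.93, 7.98 and 7.98 in NSG libraries. This was the most negative difference of the named genes, -3.57 (SE 1.10, limma adjusted p = 0.042), with little spread within either group. Lum, which encodes lumican, a proteoglycan of collagen fibrils (chromosome 10, 97565128 to 97572703), was at 0.35, 0.21 and 0.37 against 2.40, 3.03 and 3.07, a difference of -2.52 (SE 0.52, adjusted p = 0.00482). The matrix gene Dpt (dermatopontin) was at 0.49, 0.84 and 0.67 against 3.99, 2.96 and 2.58 (-2.51, adjusted p = 0.0279), and the type V collagen gene Col5a2 at 3.84, 3.82 and 4.15 against 6.002, 5.86 and 6.19 (-2.08, adjusted p = 0.0391).

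Further matrix genes outside or within the list pointed the same way. Elastin (Eln) differed by -2.43, thrombospondin 2 (Thbs2) by -2.10, the fibril-associated collagen gene Col12a1 by -1.91, the gelatinase gene Mmp2 by -1.90 and the secreted protein gene Ccdc80 by -1.74, all called. The classical markers Col1a1, Col1a2 and Dcn were lower in each A/J library than in each NSG library but were not called (-1.38, -1.66 and -2.0, limma adjusted p = 0.206, 0.105 and 0.122). Sparc (-0.17) and Thy1 (-0.33) differed least in the list. The fit shares its spread over all 8 groups of the experiment. With only the 6 libraries in the model, 22 of 24 members were called lower, beside 1984 of all 13826 genes. In leave-outs 2 or 3 members were called and the median stayed between -1.64 and -1.34. Lum was called in all 6, Col12a1 in 3, and Col3a1, Dpt, Eln, Thbs2, Col5a2, Mmp2 and Ccdc80 in 0, with an adjusted p of at most 0.142.

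Signals of other stromal tissue were mixed. Of 12 adipocyte genes 5 were called lower in A/J and 0 higher, with a median of -1.18. Adipoq, the adipokine adiponectin (chromosome 16, 23146536 to 23158028), had a level of 0 in all 3 A/J libraries and 3.79, 2.17 and 0.74 in NSG libraries (difference -2.24, SE 0.57, limma adjusted p = 0.0172), and leptin (Lep) was at 0 against 1.65, 1.60 and 0.34. The fatty acid transporter gene Cd36 and the lipid droplet gene Plin4 were lower by 1.56 and 1.12 on the log2 scale (differences -1.56 and -1.12), and Cd36, Plin4 and Lep were called in 3, 5 and 1 leave-outs. The summed level of the list was 60.7 to 83.3 CPM in A/J libraries and 321, 167 and 110 CPM in NSG replicates 1, 2 and 3. Without NSG replicate 1 the list had 1 call and a median of -0.89, and without NSG replicate 3 it had 6 and -1.60; Adipoq was called in 3 leave-outs (adjusted p = 0.0905 without NSG replicate 1). How much residual mammary fat entered each sample was not tested.

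Endothelial genes gave 1 call of 15, the angiopoietin receptor gene Tek, which was lost without A/J replicate 2 (levels 0.49, 0.40 and 1.21 against 2.51, 2.52 and 1.88, difference -1.60, limma adjusted p = 0.00953), with a median of -0.48, and pericyte and smooth muscle genes 0 of 11. For comparison, 5.32% of all genes tested were called lower. Skeletal muscle genes had a median of 1.13 with 0 of 13 called: Tnnt3, a fast troponin, was at 6.71, 7.19 and 6.85 in A/J and 5.39, 5.49 and 5.96 in NSG libraries (1.30, adjusted p = 0.0882). Their summed level was 1030, 1280 and 1090 CPM in A/J and 484, 453 and 642 CPM in NSG libraries. Carried-over body wall muscle was not tested. With only the 6 libraries in the model 9 of these 13 genes were called higher, beside 2155 of all 13826 genes. Of 9 tested liver secretory genes 0 were called, and Alb had at most 22 reads in a library.

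Keratin and epithelial genes, which mark epithelial cells whether of tumour or host, had calls in the higher direction. Of 13 tested 4 were called higher and 0 lower, with a median of 0.63. Krt42, a type I keratin (chromosome 11, 100262882 to 100269871, minus strand), was at 6.995, 8.56 and 8.28 in A/J and 4.50, 3.91 and 4.85 in NSG libraries, a difference of 3.53 (SE 0.53, limma adjusted p = 0.00155) called in all 6 leave-outs. Type I keratins share sequence with one another, so how its reads were assigned is uncertain. The basal keratin gene Krt14 was at 9.63, 10.13 and 10.14 against 9.04, 8.69 and 8.84 (1.11, adjusted p = 0.0208), Krt7 differed by 0.99 and the adhesion gene Epcam by 0.93 (7.97, 8.29 and 8.07 against 7.23, 7.18 and 7.15). Each of these 3 was called in 2 leave-outs. Keratin and fibroblast lists moved in opposite directions: mean list levels were 6.02 to 6.07 in A/J and 5.10 to 5.26 in NSG libraries for keratin genes, and 3.58 to 4.15 against 5.30 to 5.59 for fibroblast genes. What part a change in cell mixture plays in the other differences was not tested.

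**Figure D3:**
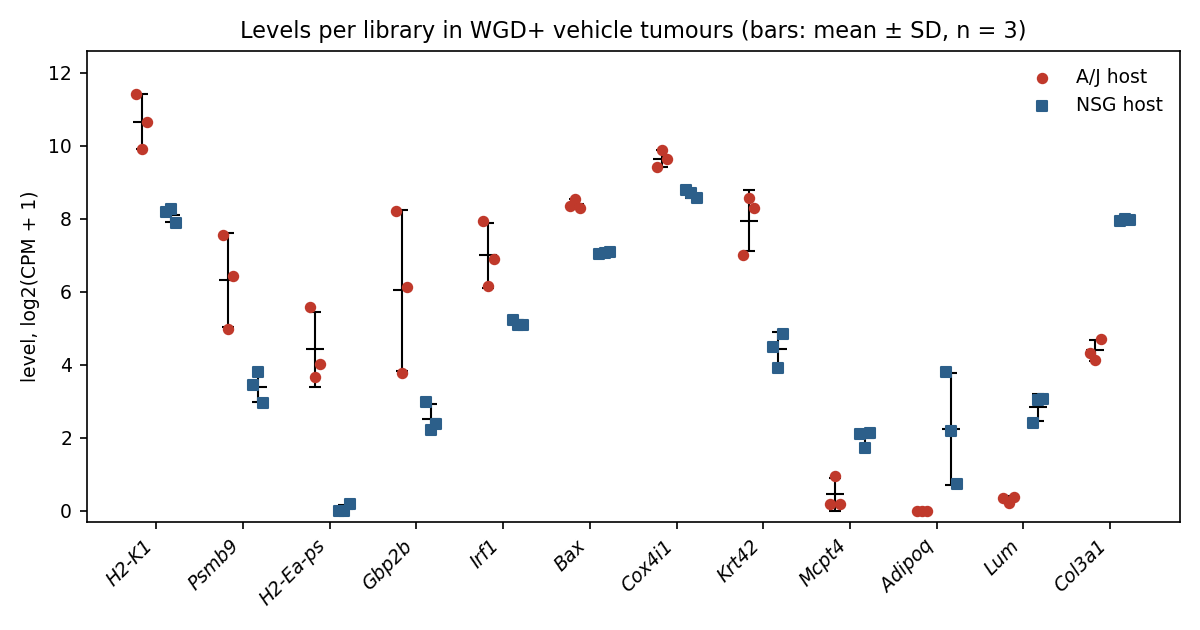
Level of 12 genes (log2(CPM + 1)) in each A/J (red circles) and NSG (blue squares) library, with mean and SD of 3 libraries. H2-K1, Psmb9, Gbp2b and Irf1 spread widely among A/J libraries, Bax and Col3a1 lie tightly within each host, and Adipoq is at 0 in the 3 A/J libraries.

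Targets of p53 included some of the steadiest differences. The transcription factor p53 answers DNA damage and stress by inducing cell cycle arrest and apoptosis genes. Of 25 listed targets 5 were called higher in A/J and 0 lower, with a median of 0.19. Bax, which permeabilizes mitochondria in apoptosis (chromosome 7, 45461697 to 45466898, minus strand), was at 8.34, 8.55 and 8.30 in A/J and 7.04, 7.07 and 7.08 in NSG libraries. The difference was 1.33 (SE 0.21, limma adjusted p = 0.00133) and was called in all 6 leave-outs. Bbc3, which encodes the BH3-only protein PUMA, was at 5.75, 5.48 and 5.42 against 4.58, 4.40 and 3.56 (1.37, adjusted p = 0.0192), and Cdkn1a, the cyclin-dependent kinase inhibitor p21 (chromosome 17, 29090976 to 29100727), at 8.03, 7.81 and 7.86 against 7.11, 7.03 and 7.03 (0.85, adjusted p = 0.0146). The 2 other calls were the AKT inhibitor gene Phlda3 and the xylulose reductase gene Dcxr (0.98). Bbc3 and Dcxr were called in 3 leave-outs and Cdkn1a in 4; without NSG replicate 3 the list had 2 calls. The remaining 20 targets were not called.

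Their promoter windows were searched for the p53 half-site on both strands. It was found in 8.36% of all 32851 windows and in 2 of the 5 called targets, Bax and Cdkn1a, which are shown because their groups lay apart with little spread. The share is per window and the count per gene, and a gene can have several windows.
Bax: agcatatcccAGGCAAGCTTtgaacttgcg
Cdkn1a, distal: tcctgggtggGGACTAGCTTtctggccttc
Cdkn1a, proximal: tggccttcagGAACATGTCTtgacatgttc
The half-site letters are in capitals. That of Bax (chr7:45467080-45467109, minus strand) begins 201 bases before the start, and those of Cdkn1a (chr17:29090896-29090925 and chr17:29090918-29090947, plus strand) begin 73 and 51 bases before it. The windows of Bbc3 held none.

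A few cell cycle genes were called, all lower in A/J. Of 17 G2/M genes 3 were called lower and 0 higher, with a median of -0.19: Ccnb1 (cyclin B1) at 6.63, 6.61 and 6.97 against 7.54, 7.42 and 7.60 (difference -0.78, limma adjusted p = 0.0499), the kinesin gene Kif11 at -0.71 and the spindle checkpoint kinase gene Bub1b at -0.70. Of 17 replication genes Cdc6 (-0.82), which loads the helicase, and Mcm5 (-0.55), a helicase subunit, were called lower, with a median of -0.12. Beside these counts, 5.32% of all genes were called lower in the full set. In leave-outs the 2 lists had 0 to 2 and 0 to 1 calls, where 142 to 540 of all 13826 genes were called lower. Bub1b was called in 3 leave-outs, Cdc6 in 2, Kif11 in 1 and Ccnb1 and Mcm5 in 0.

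Genes of the mitochondrial respiratory chain had calls in the higher direction. Of 22 tested 10 were called higher and 0 lower, with a median of 0.43. Cox4i1, a nuclear-encoded subunit of cytochrome c oxidase (chromosome 8, 120668222 to 120674207), was at 9.41, 9.88 and 9.64 in A/J and 8.79, 8.70 and 8.55 in NSG libraries (0.96, SE 0.18, limma adjusted p = 0.00277), and Cox6a1 of the same complex at 8.50, 8.90 and 8.52 against 7.85, 7.58 and 7.75 (0.91, adjusted p = 0.00473). The complex I subunit genes Ndufa1 and Ndufb7 differed by 0.96 and 0.91, called in 5 and 2 leave-outs. Other members differed little: Atp5a1, Atp5b, Sdha and Ndufs1 were at 0.00, -0.18, 0.14 and -0.13. Cox4i1 and Cox6a1 were called in all 6 leave-outs, and the list had 3 calls without A/J replicate 2, 4 without A/J replicate 3 or NSG replicate 2 or 3, 8 without NSG replicate 1 and 10 without A/J replicate 1. Cytosolic ribosomal protein genes had a median of 0.50 with 3 of 18 called higher, among them Rpl18 (0.97) and Rplp1 (0.73), called in 4 and 2 leave-outs. Under quantile normalization that median was 0.13 with 1 call. Both families have many processed copies in the genome.

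The host difference varied with transcript length and with GC content. Tested genes were split into 5 equal groups by transcript length. The group with the shortest transcripts (median 1314 nt) had a median difference of 0.29, with 17.5% called higher and 1.2% lower, and the group with the longest (median 6646 nt) had -0.28, with 1.31% higher and 13.3% lower. Genes called higher had a median length of 1909 nt and genes called lower 5172 nt, beside 3276 nt for all tested. The deviation of short from long genes was -0.02, 0.33 and 0.13 in the A/J libraries and -0.40, -0.42 and -0.47 in the NSG libraries, so the 2 hosts did not overlap. In WGD- vehicle tumours the shortest and longest groups had medians of 0.31 and -0.30, and in WGD+ YM-155 tumours 0.03 and -0.03. By GC content, the highest group had 11.94% called higher and 2.55% lower, and the lowest 2.69% and 8.99%. The deviation of high from low GC genes did not overlap between hosts either. After a correction of each library for length and GC content, added with the data in view, 895 genes were called, 567 higher and 328 lower. In that fit the respiratory list had 4 calls and a median of 0.24, the ribosomal list 1 and 0.21, fibroblast genes 3 and -1.34, interferon-gamma genes 1 and 1.91, type I interferon genes 1 and 1.07, p53 targets 4 and 0.30, and MHC class I genes 10 and 1.58. Keratin genes had 2 calls and G2/M genes 1. Of the 99 named genes, 30 lost their call under this correction and 1 gained one. Calls were lost for Col3a1, Irf1, Isg15 and Krt14, among others (limma adjusted p = 0.0711, 0.0587, 0.0643 and 0.0895). Calls were kept for H2-K1, Bax and Lum, among others (limma adjusted p = 0.0231, 0.00325 and 0.00552). Whether transcript length or GC content caused any of these differences was not tested.

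**Figure D4:**
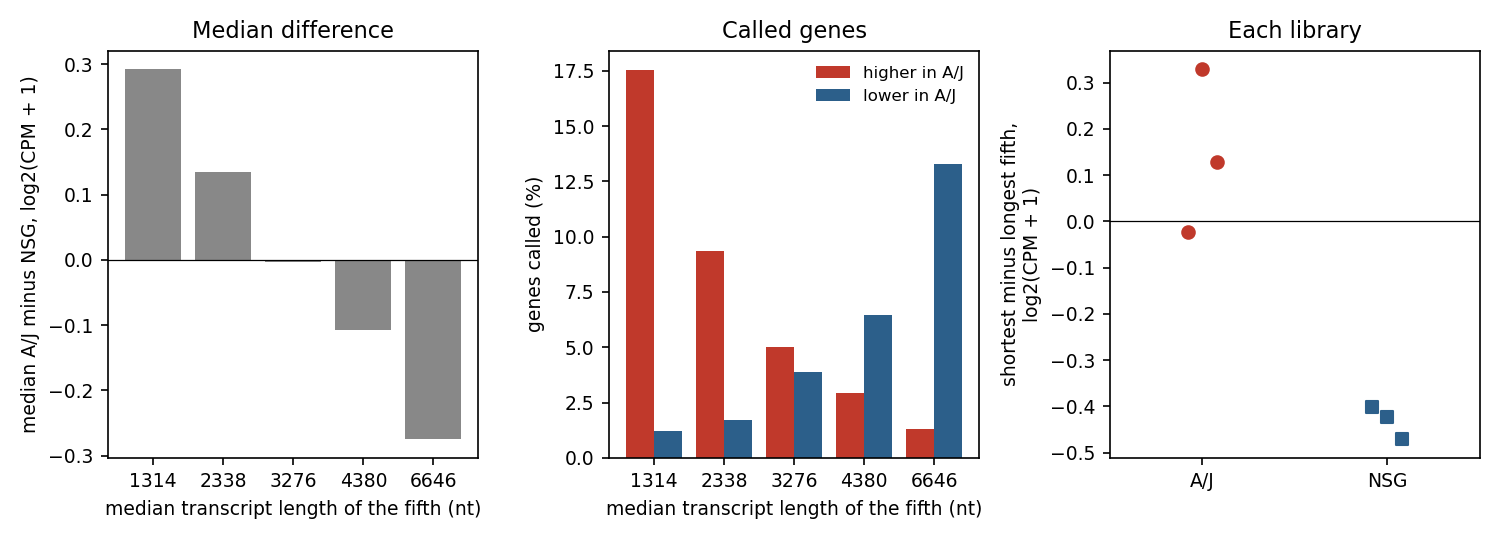
Left and middle: median host difference (log2(CPM + 1)) and share of genes called, in 5 groups of transcript length (labels give the median length in nt). Right: median of the shortest minus the longest group in each library, relative to the mean of all libraries of the experiment; the 3 NSG libraries lie between -0.47 and -0.40, below the 3 A/J libraries.

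Secreted factors and their pathways gave single calls in both directions, where 7.2% of all genes tested were called higher and 5.32% lower. Among 16 tested chemokine genes Cxcl16, a scavenger chemokine of macrophages and epithelium, was at 7.61, 7.43 and 7.40 in A/J and 6.45, 6.36 and 6.32 in NSG libraries (1.11, SE 0.21, limma adjusted p = 0.00257) and was called in all 6 leave-outs. The eotaxin gene Ccl24 was higher by 1.80, with a call in 1. Cxcl14, a chemokine of epithelium and stroma (chromosome 13, 56288643 to 56296551, minus strand), was at 1.78, 2.11 and 1.74 against 5.005, 5.40 and 4.32 (-3.03, SE 0.72, adjusted p = 0.0134), called in 5 of 6 (adjusted p = 0.0566 without NSG replicate 2). Of 11 complement genes 2 were called lower and 1 higher, among them the inhibitor gene Serping1 (-1.65) and the protease gene C1ra (0.62), with calls in 1 and 0 leave-outs. In the TGF-beta pathway the ligand gene Tgfb3 was higher by 1.04 (adjusted p = 0.00669, all 6 leave-outs) and the receptor gene Tgfbr1 lower, at -1.04 (adjusted p = 0.0332, 0 leave-outs).

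Other genes of large difference lay outside the lists. Dnase1l3, a secreted nuclease of dendritic cells and macrophages, was at 4.34, 3.02 and 3.77 against 1.36, 1.06 and 0.85 (2.62, limma adjusted p = 0.0104), and Foxj1, the master factor of motile cilia, at 4.02, 3.80 and 3.83 against 1.72, 2.38 and 0.85 (2.23, adjusted p = 0.00701). Each was called in 5 leave-outs. On the lower side were Serpina3n (-2.46), an acute phase serpin with near copies on its cluster, Zbed6 (-1.85), a repressor of Igf2, and the ligand gene Bmp7 (-1.78), with calls in 0, 2 and 5 leave-outs. Lists of stress and metabolism gave few calls: of 15 hypoxia, 10 NRF2 and 12 cholesterol synthesis genes 0 were called, with Ldha at 0.46 (adjusted p = 0.056) and Lss at -0.50 (adjusted p = 0.0808). Of 13 unfolded protein response genes Hspa5, the chaperone BiP, was called lower (-0.53, adjusted p = 0.0191), and of 12 NF-kB targets and 10 immediate early genes Relb (0.82) and Junb (0.80) were called higher, with calls in 3, 2 and 3 leave-outs. Among all genes tested 7.2% were called higher and 5.32% lower, so single calls in these lists lie near those shares.

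The same host contrast was available in WGD- vehicle and in WGD+ YM-155 tumours, each from 6 libraries of its own. The WGD- vehicle set includes A/J replicates 1 and 2, which stood apart from the other libraries. In WGD- vehicle tumours 34.5% of genes were called (4768), and in WGD+ tumours treated with YM-155, a small molecule known as a survivin suppressant, 0.0362% (5 genes, 4 of them lower, which is 0.0289%). Of the 1731 genes called in WGD+ vehicle tumours, 1667 (96.3%) had the same direction in WGD- vehicle tumours, beside 73.6% of all tested genes, and 1529 (88.3%) the same direction under YM-155, beside 68.7%. Calls shared in direction with WGD- vehicle tumours numbered 1157, which is 66.8% of the WGD+ calls and 24.3% of the WGD- calls, and 1 gene was called in opposite directions. Of the 5 genes called under YM-155, 4 were called here in the same direction: Mcpt4, the NAD-consuming enzyme gene Bst1 (-1.81) and Serpina3h (-1.74) lower and Rnase2a (2.26) higher in A/J.

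A test of the difference between forms called 0 of 13826 genes (limma, 1787 at an unadjusted p under 0.05, voom 0). Leaving out A/J WGD- vehicle replicate 3 gave 135 calls, 46 higher and 89 lower. In that fit the A/J WGD- vehicle group held only replicates 1 and 2, the libraries that stood apart. A test of the difference between YM-155 and vehicle in WGD+ tumours also called 0 (1156 unadjusted, voom 0), and 20 without A/J WGD+ YM-155 replicate 2. Side by side, the median of the interferon-gamma list was 1.82 in WGD+ vehicle, 3.69 in WGD- vehicle and 0.54 in WGD+ YM-155 tumours, with 3, 19 and 0 members called. For MHC class I genes the medians were 1.75, 2.74 and 0.59, for fibroblast genes -1.49, -0.99 and -1.29, and for G2/M genes -0.19, -0.77 and -0.30.

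Some members differed in these values without passing the test of the difference. Krt42 was at 3.53 in WGD+ vehicle, 1.26 in WGD- vehicle and 0.89 in WGD+ YM-155 tumours, and Krt14 at 1.11, 0.08 and -0.05. The mast cell genes Mcpt4 and Cma1 were at -1.53 and -1.37 here, 0.13 and 0.47 in WGD- vehicle and -2.04 and -1.82 in WGD+ YM-155 tumours. Lum was at -2.52, -0.49 and -1.25, the complement inhibitor gene Serping1 at -1.65, 0.61 and -1.50, and the muscle list had medians of 1.13, -1.04 and 1.29. Unadjusted p-values of the difference between forms were 0.00723 for Krt42, 0.0036 for Mcpt4, 0.00594 for Cma1, 0.0104 for Lum and 0.00322 for Serping1 in the limma fit, and the adjusted values did not pass.

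**Figure D5:**
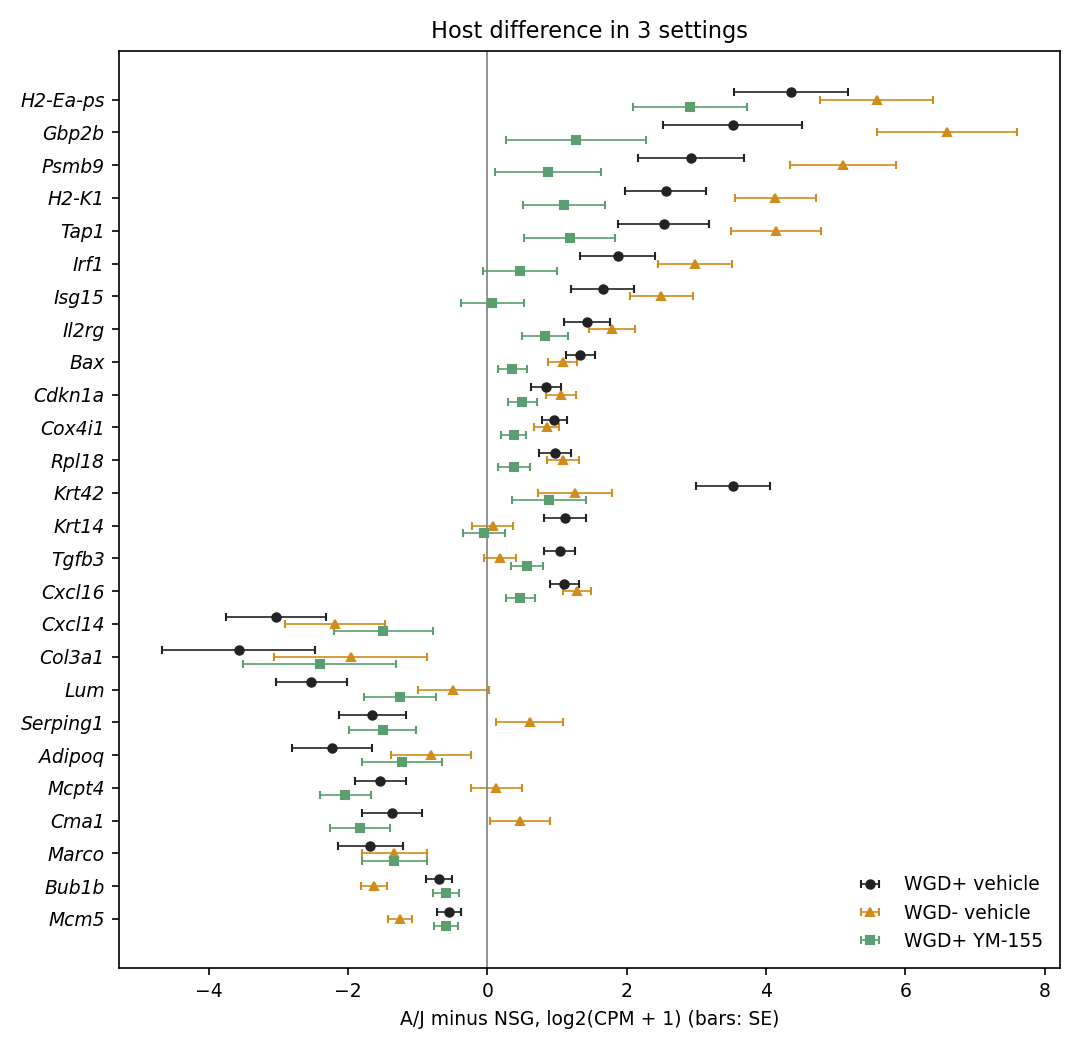
Host difference (A/J minus NSG, log2(CPM + 1), bars show the SE) of 26 genes in WGD+ vehicle (black circles), WGD- vehicle (orange triangles) and WGD+ YM-155 tumours (green squares). Interferon and MHC genes are ordered WGD- vehicle, WGD+ vehicle, WGD+ YM-155 from high to low, and Mcpt4 and Cma1 are below 0 in both WGD+ settings and above 0 in WGD- vehicle tumours.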

How the data were processed

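Total RNA of the tumours was made into stranded TruSeq mRNA libraries, per the labels' protocols. Per the submitters' processing notes, STAR 2.5.1b, mm10 and edgeR were used. Which annotation and counter were used is not stated in the labels. The deposited log2 values are TMM-scaled log2(CPM + 1), with a pseudocount of 1, since this reading gave whole reads within 0.1 for 100% of the values checked in each of the 6 libraries, and depth was recovered from it. Spreadsheet dates had replaced 27 symbols, which were left out, and 96.2% of symbols matched GENCODE M21, the source of coordinates.

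Groups came from sample titles. A mean per group was fitted to all 24 libraries (8 groups of 3) with limma 3.58.1 in R 4.3.3, with trend and robust empirical Bayes, for genes above 1 CPM in at least 3 libraries. Differences were called at a Benjamini-Hochberg adjusted p under 0.05. The fit was tested on simulated data. Members and gene lists (36 lists, 535 genes) were chosen with earlier results of these data known. Lists got no test. Named genes are Il2rg, Prkdc, up to 12 called genes each way with the largest difference (groups apart, higher mean at least 3, no gene models), up to 4 called members a list or 2 with the smallest p, and markers at or near 0. Members given beyond this rule were chosen after their values were seen. Alternatives were no filter, a larger pseudocount, quantile normalization, only the compared groups, the replicate number as a block, voom on recovered reads, and leaving out each library. Added with the data in view were a length and GC correction and leaving out libraries that stand apart (best correlation over 3 median absolute deviations under the median). The precision of low genes is limited by depth: a single read was worth 0.135 to 0.158 CPM.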

Additional observations from a re-analysis of the deposited data

How the results depend on the processing

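The 1731 calls between hosts moved to 4139 when only the compared groups were fitted (1719 shared) and to 895 after the length and GC correction (729 shared), and ranged from 417 to 1374 with a library left out; the cause was not tested. The other settings gave 1349 to 2448 calls, with 1950 for voom on recovered reads. The share of higher genes was 57.5% and ranged from 50.6% under quantile normalization to 68.2% without A/J replicate 2. The test between tumour forms called 2 genes with only the compared groups and 0 to 135 with a library left out, and the test between YM-155 and vehicle 0 to 20. Deviations from the group mean correlated between same-numbered libraries at 0.0758, -0.0463 and 0.0821, which gave no sign of pairing by number. A replicate block gave 1958 calls. Of 99 named genes 77 were called, 10 of these in all 6 leave-outs and 16 in none. None of the 77 called genes reversed direction under these alternatives. Small differences that were not called did change sign: Cd22 (0.09) was at -0.04 and -0.09 without A/J replicate 1 or NSG replicate 1, and Alb (0.54) at -0.05 without A/J replicate 2. So did list medians near 0, such as T cell genes (0.19, and -0.09 after the length and GC correction) and common chain receptors (0.09, and -0.004 without NSG replicate 1).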

Other observations

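Outside the gene lists, 279 genes were called in every one of the 6 leave-outs, 198 higher and 81 lower in A/J. The genes below are examples from the 10 of largest difference in each direction with a higher group mean of at least 3, all chosen after the values were seen. Fst, which encodes the activin antagonist follistatin, was at 8.28, 9.03 and 8.71 in A/J and 6.38, 6.64 and 7.08 in NSG libraries (1.98, SE 0.39, limma adjusted p = 0.00482). L1cam, a neural cell adhesion molecule gene, was at 6.48, 6.04 and 5.80 against 4.66, 4.25 and 3.95 (1.82, SE 0.31, adjusted p = 0.00211). In both genes every A/J library lay above every NSG library. Fermt1 (kindlin-1, an integrin activator), Nppb (a natriuretic peptide) and Tnfrsf9 (the co-stimulatory receptor 4-1BB) were higher by 1.98, 1.94 and 1.89. Psme2b, a retrocopy of Psme2 that may share its reads, was higher by 1.92.

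On the lower side Abca1, the cholesterol efflux transporter gene, was at 3.77, 3.74 and 3.58 in A/J and 5.36, 5.56 and 5.25 in NSG libraries (-1.69, SE 0.25, limma adjusted p = 0.000977). Adamts1, a matrix protease gene, was at 5.17, 4.75 and 4.88 against 6.68, 6.81 and 6.41 (-1.70, SE 0.35, adjusted p = 0.00625). The nuclear exportin gene Xpo4 and the cytoskeletal gene Dpysl3 differed by -1.38 each. Within each gene the hosts did not overlap.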
